A study of Mus musculus with 20 samples.

Results

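The effect of Ube3a genotype was described as an average over both brain regions of the same animal. All 20 libraries of the series entered it. For each of 10 mice the log2 normalized counts of its cortex library and its hippocampus library were averaged, and the 5 Ube3aOE mice (numbers 6 to 10) were compared with the 5 WT mice (numbers 1 to 5) across 15661 genes. A difference shared by both regions keeps its size in this average, whereas the spread between single libraries becomes smaller.

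The mRNA libraries came from cortex and hippocampus dissected from C57Bl/6J pups of both sexes at postnatal day 7 (P7). The WT mice carried their own Ube3a gene alone. The Ube3aOE mice carried in addition a bacterial artificial chromosome transgene with extra Ube3a copies. The study names the sequenced mice Ube3a+2, with 2 extra copies. The transgene held the whole gene with about 50 kb of sequence upstream and 20 kb downstream. It was driven by the gene's own control sequence rather than by a cell type-specific promoter. No Cre was used, the line of the sequenced mice is not given in the labels, and each library is whole tissue, so that fewer cells of a type and less RNA per cell cannot be told apart. Reads counted on genes ranged from 14191093 to 16752326 per library. The lowest total was that of the cortex library of WT mouse 2. This library also had the lowest share of reads on genes (69.7%, against a median of 78.2%) and the highest share not aligned (8.66%).

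UBE3A is an E3 ubiquitin ligase of the HECT family, which attaches ubiquitin to other proteins and thereby marks many of them for the proteasome. In neurons the maternal allele is expressed and the paternal allele is silenced by a long antisense transcript. Loss of the maternal copy causes Angelman syndrome, and extra maternal copies of the chromosome region are found in Dup15q syndrome, in which neurons are thought to hold too much UBE3A.

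Marker genes were read against the labelled regions. In the 10 hippocampus libraries the 10 hippocampal markers summed to 828 to 1217 CPM (reads scaled to the library total), against 565 to 681 CPM in the cortex libraries. The 10 neocortical markers summed to 846 to 1241 CPM in cortex and to 487 to 700.4 CPM in hippocampus. The hippocampus libraries of WT mouse 2 and Ube3aOE mouse 9 were highest for neocortical markers (697 and 700.4 CPM, next 555 CPM). They were also lowest for hippocampal markers (828 and 839 CPM, next 1033 CPM). Sex-linked genes went against the labelled sex in 2 WT mice. Xist, which is transcribed from the inactive X chromosome of females, stood at a mean log2 CPM of 7.45 in WT mouse 3, labelled male, and at -2.72 in WT mouse 5, labelled female, alike in both libraries of each mouse. Without these 2 mice the difference of Ube3a was 1.30 on the log2 scale, and the smallest adjusted p of any other gene was 0.931 (limma).

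Ube3a lies on chromosome 7 (GRCm38, 59228750 to 59311536, plus strand). The window around its start is shown because it was carried by the transgene in full and because a second annotated gene, described below, spans it. The sequence is from RefSeq (GRCm38.p6, plus strand, chr7:59228500-59228799, 300 bases), with the 250 bases before the start in lower case and the 50 bases from the start onward in capitals.
Ube3a promoter: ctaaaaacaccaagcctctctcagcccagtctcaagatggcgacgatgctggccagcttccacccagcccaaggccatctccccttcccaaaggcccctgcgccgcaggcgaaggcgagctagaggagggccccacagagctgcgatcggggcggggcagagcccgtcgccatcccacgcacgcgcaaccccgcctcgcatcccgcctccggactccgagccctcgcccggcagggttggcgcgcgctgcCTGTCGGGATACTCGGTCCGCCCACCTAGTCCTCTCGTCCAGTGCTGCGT
It held 29 CpG dinucleotides at a GC content of 69%, and 12.9% of the 32851 RefSeq promoter windows of this length held at least as many.

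Ube3a was the one gene that passed the threshold in the averaged comparison. Of 15661 genes tested, 1 (0.00639%) had an adjusted p under 0.05 by limma with Benjamini-Hochberg adjustment. Averaged over both regions, Ube3a stood at log2 CPM values of 6.00, 6.02, 5.99, 5.91 and 5.93 in WT mice 1 to 5 and at 7.12, 7.11, 7.51, 7.09 and 7.56 in Ube3aOE mice 6 to 10. Every Ube3aOE mouse was above every WT mouse. The mean difference was 1.31 on the log2 scale (SE 0.09, adjusted p = 3.2514e-05), which put the transcript at 248% of the WT level (95% confidence interval 216% to 283%). A two-sided exact permutation test over the 10 mice gave p = 0.00794, the smallest that the 252 assignments of mice allow.

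The rise of Ube3a had the same size in both regions. It was 1.30 in cortex and 1.32 in hippocampus on the log2 scale. The difference between the regions was 0.02 (SE 0.13, 95% confidence interval -0.26 to 0.31), and limma gave it an unadjusted p of 0.862. Among WT mice the averaged level was tight, with an SD of 0.044. Among Ube3aOE mice the SD was 0.233, because mice 8 and 10 lay above the other 3. This split was present in both libraries of each animal. In cortex mice 8 and 10 stood at 7.50 and 7.51 and the other 3 Ube3aOE mice between 7.02 and 7.09. In hippocampus they stood at 7.52 and 7.61, against 7.16 to 7.20 in the others.

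Of the 10 genes annotated inside or across the sequence carried by the transgene, 4 had enough reads to be tested. RP24-439I22.3 (ENSMUSG00000109536) is a gene model of unknown function on the minus strand of chromosome 7 (59223847 to 59254788). It spans the start of Ube3a and the window printed above. It stood at log2 CPM values of 1.89, 1.71, 1.95, 1.65 and 1.81 in WT mice and at 2.28, 2.42, 2.14, 2.35 and 2.38 in Ube3aOE mice, without overlap. The difference was 0.51 (SE 0.10), with an unadjusted limma p of 0.000197 and an adjusted p of 0.774, so it did not pass the threshold across all genes. Over the other settings its adjusted p ranged from 0.0412, from DESeq2 on counts summed per mouse, to 0.970 in cortex alone. The 20 libraries held between 42 and 94 reads on this gene each, and whether the counting used strand is not given in the sources used here, so its reads cannot be told apart from unspliced Ube3a RNA. Of the 2 Ube3aOE mice highest for Ube3a, mouse 8 was lowest for RP24-439I22.3 and mouse 10 second highest.

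Snhg14, the host of the long antisense transcript that silences the paternal allele, overlaps the 3′ end of Ube3a and is carried by the transgene in small part only. Its averaged level was 4.93, 4.96, 4.93, 4.81 and 4.83 in WT mice and 4.70, 4.79, 4.99, 5.06 and 5.07 in Ube3aOE mice. The groups overlapped, and the difference was 0.03 (SE 0.08, 95% confidence interval -0.13 to 0.19). RP24-439I22.9, an unnamed model downstream of Ube3a, had 2 to 14 reads per library and a difference of -0.40 (SE 0.26).

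**Figure D1:**
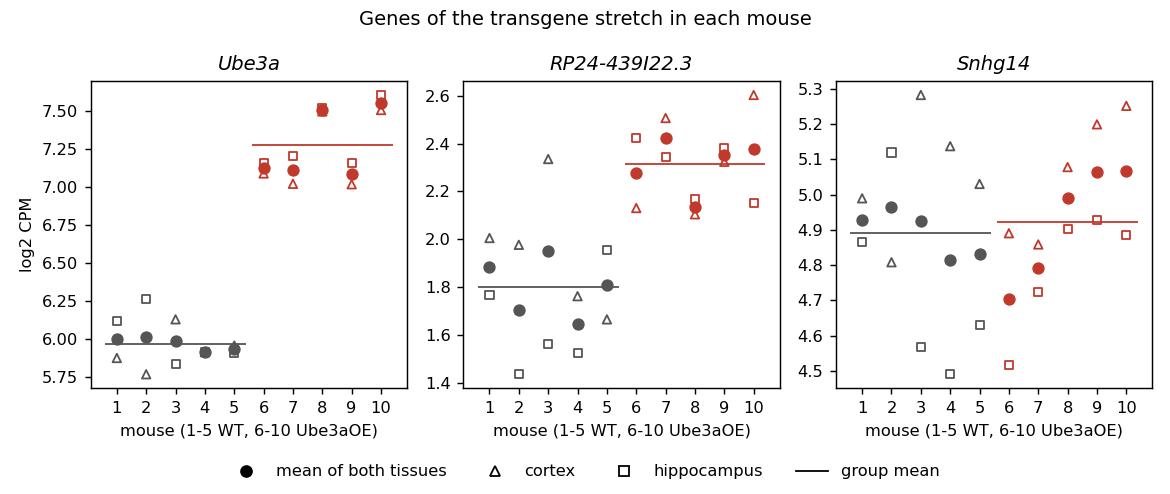
Log2 CPM of Ube3a, RP24-439I22.3 and Snhg14 (y axis, its range set per panel) in each mouse (x axis, WT mice 1 to 5 in grey, Ube3aOE mice 6 to 10 in red). Filled circles are the mean of both tissues, open triangles cortex, open squares hippocampus and lines the group means. The filled circles of the genotypes do not overlap for Ube3a and RP24-439I22.3 and overlap for Snhg14.

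No other gene passed the threshold. At an unadjusted p under 0.05 there were 998 genes (6.37% of those tested), of which 607 (3.88%) were higher and 391 (2.5%) lower in Ube3aOE mice, and the smallest adjusted p of any of them was 0.774. The middle 90% of all genes lay between -0.18 and 0.29 on the log2 scale. The 95% confidence interval lay inside the borders of -0.5 and 0.5 for 12607 genes (80.5%). Among the 10026 genes with a mean of at least 10 CPM this was so for 9663 (96.4%). Averaging narrowed the estimates: the median SE was 0.086 for the mouse means, against 0.103 in cortex and 0.109 in hippocampus alone. The regions taken alone had 652 (4.16%) and 1118 (7.14%) genes at an unadjusted p under 0.05.

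The 11 higher genes with the smallest p after Ube3a are described by what they encode, with no test of a shared function. Sox5 encodes a transcription factor of deep-layer cortical neurons. It stood at 5.88, 5.68, 5.95, 5.73 and 5.76 in WT mice and at 5.97, 6.23, 6.06, 6.16 and 6.25 in Ube3aOE mice, a difference of 0.34 (SE 0.07, unadjusted p = 0.00022). The groups did not overlap, although the gap between the highest WT and the lowest Ube3aOE mouse was narrow. Bahcc1, which encodes a chromatin protein with a BAH domain, stood at 4.99, 4.97, 4.87, 4.79 and 4.95 in WT mice and at 5.15, 5.18, 5.14, 5.25 and 5.16 in Ube3aOE mice, a difference of 0.26 (SE 0.05). Tnrc18, which encodes a related protein with a BAH domain, stood at 7.37, 7.39, 7.29, 7.34 and 7.43 in WT mice and at 7.58, 7.60, 7.48, 7.67 and 7.59 in Ube3aOE mice, a difference of 0.22 (SE 0.04). Both genes were separated between the genotypes in hippocampus taken alone and overlapped in cortex. Bcor, which encodes a corepressor of BCL6, stood at 4.46, 4.57, 4.48, 4.43 and 4.47 in WT mice and at 4.77, 4.80, 4.61, 4.93 and 4.81 in Ube3aOE mice, a difference of 0.31 (SE 0.06). Kat6a, a histone acetyltransferase, differed by 0.18 (SE 0.04).

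None of Sox5, Bahcc1, Tnrc18, Bcor and Kat6a passed the threshold of the averaged comparison by limma. With DESeq2 on counts summed per mouse 7 genes passed, namely Ube3a, RP24-439I22.3, Ywhaz and 4 of these. Sox5, Bahcc1, Tnrc18 and Bcor had adjusted p values of 0.0405, 0.0231, 0.0231 and 0.0231, which reached 0.970 in cortex alone, the largest of any alternative. With edgeR's quasi-likelihood test on the same sums only Ube3a passed, and the smallest adjusted p of another gene was 0.789. Transcript length was taken as the median over all annotated transcripts of a gene, which need not be the length of the one expressed. By this measure Bahcc1, Bcor and Kat6a have long transcripts (10712, 6449 and 9041 bases) and Tnrc18 a short one (712). With the trend over transcript length and GC content removed, Bahcc1 stood at 0.14, Kat6a at 0.08 and Bcor at 0.22, whereas Sox5 and Tnrc18 stood at 0.32 and 0.23.

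The last 5 of the higher genes were chosen by the same rule. Celsr1, an adhesion receptor of planar cell polarity, ranged from 2.82 to 3.03 in WT and from 3.24 to 3.65 in Ube3aOE mice, a difference of 0.42 (SE 0.09). Pcdh18, a protocadherin, differed by 0.39 (SE 0.09), and Sema3b, a secreted guidance cue, by 0.52 (SE 0.12). Tfrc, the receptor that takes up transferrin-bound iron, differed by 0.28 (SE 0.07). Vgf, the precursor of several secreted peptides of neurons, ranged from 6.08 to 6.32 in WT mice and from 6.33 to 6.75 in Ube3aOE mice, a difference of 0.33 (SE 0.08). In these 5 genes, as in Sox5, the mouse means of the genotypes did not overlap, against 1.01% of all genes tested. This follows in part from picking them by a small p on the same means. In hippocampus Vgf was highest in Ube3aOE mice 7, 9 and 10 and WT mouse 4 (7.50, 7.27, 7.79 and 7.26). Pcdh18 was highest there in mice 9 and 10 (4.55 and 4.33). All of these are libraries with raised thalamic or striatal markers, described below, whose part was not tested.

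Among the genes lower in Ube3aOE mice, Ywhaz had even values within each genotype. It encodes the zeta isoform of the 14-3-3 proteins, which bind phosphorylated partners. It stood at 9.65, 9.68, 9.65, 9.66 and 9.69 in WT mice and at 9.54, 9.56, 9.57, 9.55 and 9.56 in Ube3aOE mice. The difference of -0.11 (SE 0.03, unadjusted p = 0.00439) was larger than the spread within either group. It was -0.11 in cortex and -0.11 in hippocampus, and the genotypes did not overlap in either region. The adjusted p was 0.774 by limma and 0.00988 by DESeq2, and the largest of any alternative was 0.970, in cortex alone. With the length and GC trend removed the difference was -0.08.

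Groups that do not overlap were rare. The mouse means were separated for 158 genes (1.01%), of which 76 were higher and 82 lower in Ube3aOE mice. For 3 genes (0.0192%) they were separated in the same direction in the mouse means, in cortex and in hippocampus. These were Ube3a, Ywhaz and Tm2d2, named after their values were seen. Tm2d2, which encodes a transmembrane protein, stood at 5.98, 6.07, 6.00, 6.01 and 6.00 in WT and at 5.87, 5.94, 5.84, 5.96 and 5.84 in Ube3aOE mice. The difference was -0.12 (SE 0.04, unadjusted p = 0.0141).

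The other lower genes with the smallest p followed by the same rule. Zranb2 and Luc7l3 encode RNA-binding proteins of pre-mRNA splicing, and differed by -0.24 (SE 0.06) and -0.26 (SE 0.07). Gnl3 encodes nucleostemin, a GTPase of the nucleolus, and differed by -0.19 (SE 0.06). Cpne4, a calcium-dependent membrane-binding copine, ranged from 7.22 to 7.41 in WT and from 6.77 to 7.17 in Ube3aOE mice, a difference of -0.29 (SE 0.07). Iyd, which recovers iodide from iodinated tyrosines, differed by -0.70 (SE 0.16) with few reads. Snx7, a sorting nexin, differed by -0.19 (SE 0.05). Mlip (-0.23), 2010111I01Rik (-0.27) and Ccdc32 (-0.16) differed by less than 0.3, and the unnamed model RP23-54G8.1 differed by -0.52 (SE 0.15). RP23-54G8.1 lies on chromosome 7 (61930137 to 61982358) and had 12 to 36 reads per WT library and 9 to 19 per Ube3aOE library. The gene listed as PISD lies on an unplaced scaffold and resembles Pisd, which encodes phosphatidylserine decarboxylase, so its reads may be shared with near-identical copies. Its difference was -0.74 (SE 0.19), and its values are uncertain for that reason.

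**Figure D2:**
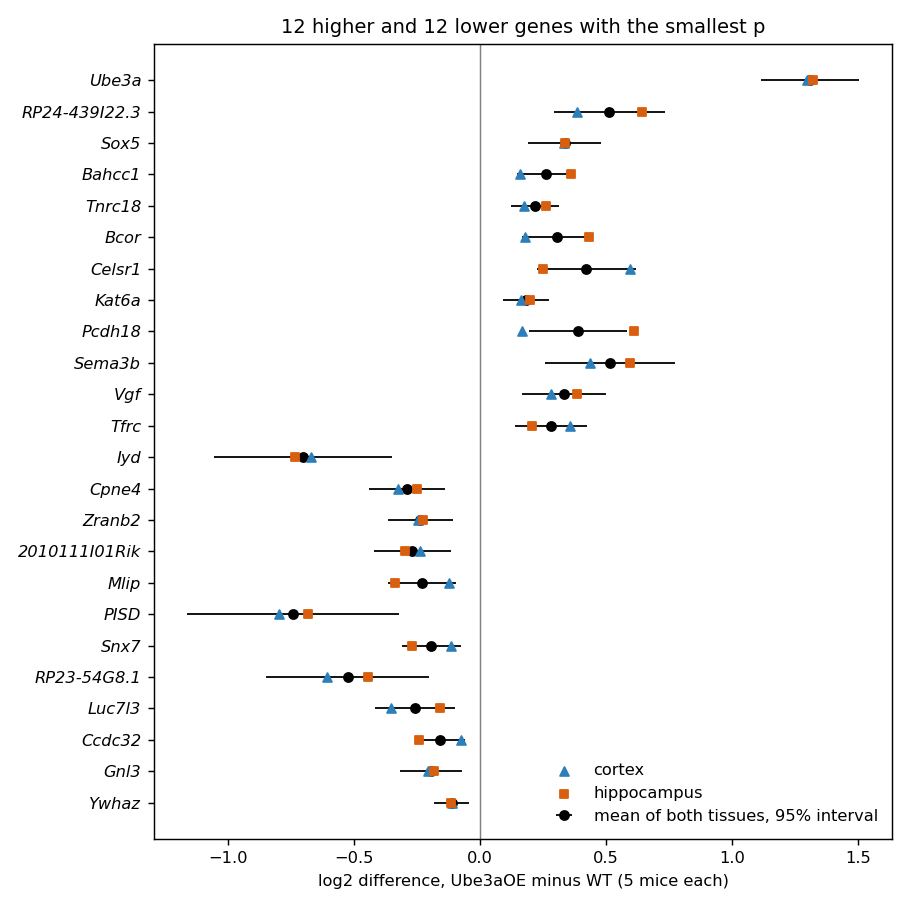
Averaged log2 difference between Ube3aOE and WT mice (x axis, black circles with 95% confidence intervals, 5 mice each) for the 12 higher and the 12 lower genes with the smallest p (y axis). Blue triangles give the difference in cortex and orange squares that in hippocampus. Ube3a stands apart at 1.31, and the other 23 genes lie between -0.74 and 0.52.

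The difference between genotypes was compared between the regions within each mouse. By limma, 0 genes differed at an adjusted p under 0.05, and 976 (6.23%) had an unadjusted p under 0.05. No other tool was run on this comparison. The smallest adjusted p was 0.348, for Zbed4, whose genotype difference was -0.58 in cortex and 0.12 in hippocampus. The next 4 were Noxred1, Krt79, Gm6159 and Myh15, all with an adjusted p of 0.626, and all 5 had low read counts. The median SE of this difference was 0.129, wider than that of the average.

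Cbln1, which encodes a synapse organizer secreted by glutamatergic neurons and was reported as a target of UBE3A excess, did not separate the genotypes. Its averaged level was 5.04, 5.95, 5.06, 5.12 and 4.91 in WT mice and 5.03, 5.48, 5.44, 5.43 and 6.05 in Ube3aOE mice. WT mouse 2 lay among the highest of all 10 mice, and Ube3aOE mouse 6 among the lowest. The difference was 0.27 (SE 0.22, 95% confidence interval -0.21 to 0.75, unadjusted p = 0.241), with 0.09 in cortex and 0.45 in hippocampus. Single mice moved this value, which was 0.45 without WT mouse 2 and 0.13 without Ube3aOE mouse 10. Mouse 10 held the highest hippocampus level (6.83), in a library with raised thalamic markers, described below, whose part was not tested. The interval does not exclude a rise beyond 0.5, whereas a fall beyond -0.5 lies outside it. Of the 15 genes for cerebellins, C1q-like proteins and their neurexin, neuroligin and delta receptor partners, 14 were higher, 1 at an unadjusted p under 0.05 (Nrxn2, 0.16, SE 0.05), against 3.88% of all genes. The median was 0.12, against 0.004 over all genes tested. It was 0.07 with the length and GC trend removed, and 0.07 without WT mouse 2.

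The genes of the chromosome region homologous to 15q11-q13 lie near Ube3a but outside the transgene. Of 15 tested, 10 were higher and 5 lower, with a median of 0.05, and 1 had an unadjusted p under 0.05, against 3.88% of all genes on the higher side. This was Magel2, an imprinted gene for a regulator of ubiquitination on endosomes. Its averaged level was 3.36, 2.96, 3.17, 3.42 and 3.00 in WT mice and 3.07, 3.53, 3.47, 3.88 and 3.88 in Ube3aOE mice, a difference of 0.39 (SE 0.15). It was 0.02 in cortex and 0.75 in hippocampus, with an unadjusted p of 0.0121 for the difference between regions. In hippocampus Magel2 was highest in Ube3aOE mice 7, 9 and 10 and WT mouse 4 (3.94, 4.26, 4.33 and 3.49), all of them libraries with raised thalamic or striatal markers, described below, whose part was not tested. Snrpn, a paternally expressed neighbour of Snhg14, stood at -0.08 (SE 0.04), and was named after its value was seen. The unnamed model RP23-54G8.1, which was lower (-0.52, given above), lies between Snrpn and Magel2 and is not in this list.

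The 24 genes for other HECT ligases were for the most part slightly higher. Of these, 20 had a higher and 4 a lower mean, the median was 0.10, and 5 had an unadjusted p under 0.05, all higher, against 3.88% of all genes. These were Nedd4 (0.15, SE 0.05), Wwp2 (0.13, SE 0.05), Huwe1 (0.20, SE 0.08), Trip12 (0.16, SE 0.07) and Herc1 (0.20, SE 0.08), named after their values were seen. No other member of the list lay further from 0 than Huwe1. For Huwe1, WT mouse 1 stood at 7.96 and the other WT mice between 7.54 and 7.86, within reach of the Ube3aOE mice at 7.75 to 8.03. With the length and GC trend removed the median of the list was 0.08, with 17 higher and 7 lower. At an unadjusted limma p under 0.05, 6 were then higher and 0 lower. That fit used the median length over the annotated transcripts of each gene, which was 1742.5 bases at the median of the list.

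The 24 tested genes for proteins reported as substrates or partners of UBE3A, a list taken from general knowledge, showed no common direction in their transcripts. Of these, 10 were higher and 14 lower, with a median of -0.02. The one with an unadjusted p under 0.05 was Psmc2, a proteasome ATPase, at -0.11 (SE 0.04). Of the 32 proteasome subunits, the machine that degrades ubiquitinated proteins, 31 were lower and 1 was at 0.00068. Their median was -0.08. Psmc2, Psmc3 (-0.10), Psmc4 (-0.08) and Psmb2 (-0.11) had an unadjusted p under 0.05, against 2.5% of all genes on the lower side. The lowest value of any subunit was -0.11.

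Other lists with short transcripts had the same sign. The median transcript length was 637 bases for the ribosomal, 607 for the respiratory chain, 957 for the mitochondrially encoded and 854.5 for the proteasome genes. Of 75 cytosolic ribosomal protein genes, 70 were lower, with a median of -0.07, and 2 had an unadjusted p under 0.05, near the 2.5% of all genes, among them Rpl35a (-0.16, SE 0.07). Of 75 nuclear genes for the respiratory chain, 69 were lower, with a median of -0.05, and 7 had an unadjusted p under 0.05, against the same 2.5%, among them Ndufa4 (-0.16, SE 0.05) and Cox6c (-0.14, SE 0.05). These medians came from hippocampus for the most part. The respiratory chain genes had a median of 0.002 in cortex and -0.12 in hippocampus, and the ribosomal genes of -0.01 and -0.12. The averaged median of the ribosomal genes was -0.03 without Ube3aOE mouse 10 and -0.12 without mouse 7. All 13 tested mitochondrially encoded genes were lower, with a median of -0.14, but here the regions were the other way round, at -0.24 in cortex and 0.02 in hippocampus. Their median was -0.04 without WT mouse 3 and -0.24 without WT mouse 5. The one with an unadjusted p under 0.05 was mt-Rnr1, the small ribosomal RNA of mitochondria, at -0.30 (SE 0.12).

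Transcript length, as the median over the annotated transcripts of a gene, moved with these differences. Among 15614 genes with a length, the median difference was -0.03 in the 3123 with the shortest transcripts and 0.06 in the 3122 with the longest. In the longest class 236 genes were higher and 24 lower at an unadjusted p under 0.05, and in the shortest class 74 were higher and 120 lower. The median transcript length was 2387 bases for the 607 higher genes, 1023 for the 391 lower genes and 1515 for all genes tested. Over classes of GC content the medians ran from -0.004 to 0.008 in no order, while the counts at an unadjusted p under 0.05 were 91 higher and 94 lower in the lowest class and 147 higher and 50 lower in the highest. With the length and GC trend removed the medians were -0.05 for the proteasome subunits (28 of 32 lower), -0.03 for the ribosomal genes (60 of 75), -0.02 for the respiratory chain genes (52 of 75) and -0.10 for the mitochondrially encoded genes (12 of 13). The members lower at an unadjusted p under 0.05 went from 4 to 1, from 2 to 0, from 7 to 2 and from 1 to 2 in these lists, and 1 respiratory chain gene was higher. Ube3a itself stood at 1.35 in that fit.

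**Figure D3:**
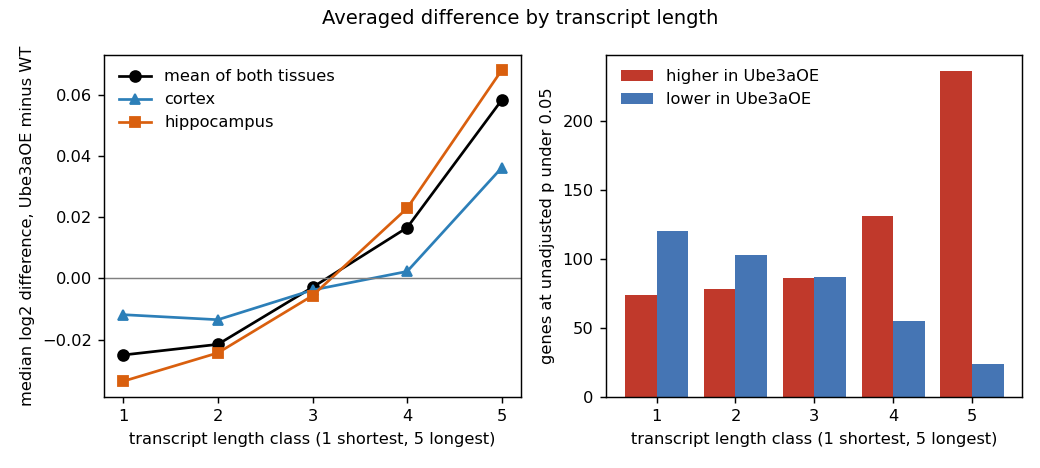
Left, median log2 difference between Ube3aOE and WT mice (y axis) in 5 classes of transcript length (x axis, from shortest to longest) for the mean of both tissues (black), cortex (blue) and hippocampus (orange). Right, the number of genes at an unadjusted p under 0.05 that were higher (red) or lower (blue) in the averaged comparison, from 74 and 120 in the shortest to 236 and 24 in the longest class.

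Genes of neuronal signalling held few members at a small p. Of 15 ionotropic glutamate receptor subunits, 13 were higher, with a median of 0.04, and 1 had an unadjusted p under 0.05, against 3.88% of all genes. With the length and GC trend removed 8 were higher and 7 lower, with a median of 0.01. The 1 was Grin3a, an NMDA receptor subunit of the young brain, which stood at 7.27, 7.38, 7.08, 7.13 and 7.05 in WT mice and at 7.16, 7.34, 7.69, 7.73 and 7.63 in Ube3aOE mice, a difference of 0.33 (SE 0.11). Of 12 GABA-A receptor subunits, 9 were higher, with a median of 0.05, and Gabrb2 (0.14, SE 0.06) had an unadjusted p under 0.05. Of 20 cholesterol synthesis genes, 14 were higher and none had an unadjusted p under 0.05. Among 18 circadian clock genes, which were measured because UBE3A binds a clock protein, 11 were higher, with a median of 0.03, and Bhlhe41, a clock repressor, stood at 0.25 (SE 0.11).

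Immediate early genes, which neurons transcribe within minutes of activity, were mixed in direction. Of 20 tested, 13 were lower and 7 higher, with a median of -0.06, and 4 had an unadjusted p under 0.05, all lower, against 2.5% of all genes. Fos, a subunit of the AP-1 transcription factor, stood at 2.68, 3.05, 3.02, 2.82 and 2.56 in WT mice and at 2.61, 2.71, 2.28, 2.31 and 2.20 in Ube3aOE mice. The groups overlapped, and the difference of -0.40 (SE 0.13) was -0.40 in cortex and -0.40 in hippocampus. Egr1, a zinc finger transcription factor, stood at -0.31 (SE 0.11), and Npas4, an activity-dependent factor of neurons, at -0.39 (SE 0.15). Fosb, of the same family as Fos, stood at -0.53 (SE 0.22). These 4 were lower in both regions, which follows in part from picking them by the average of the regions. The median of all 20, these 4 included, was 0.04 in cortex and -0.20 in hippocampus. As mouse means, the summed level of the list had a median of 585 CPM in WT and 604 CPM in Ube3aOE mice. Neither the time of dissection nor handling of the pups is given in the labels.

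**Figure D4:**
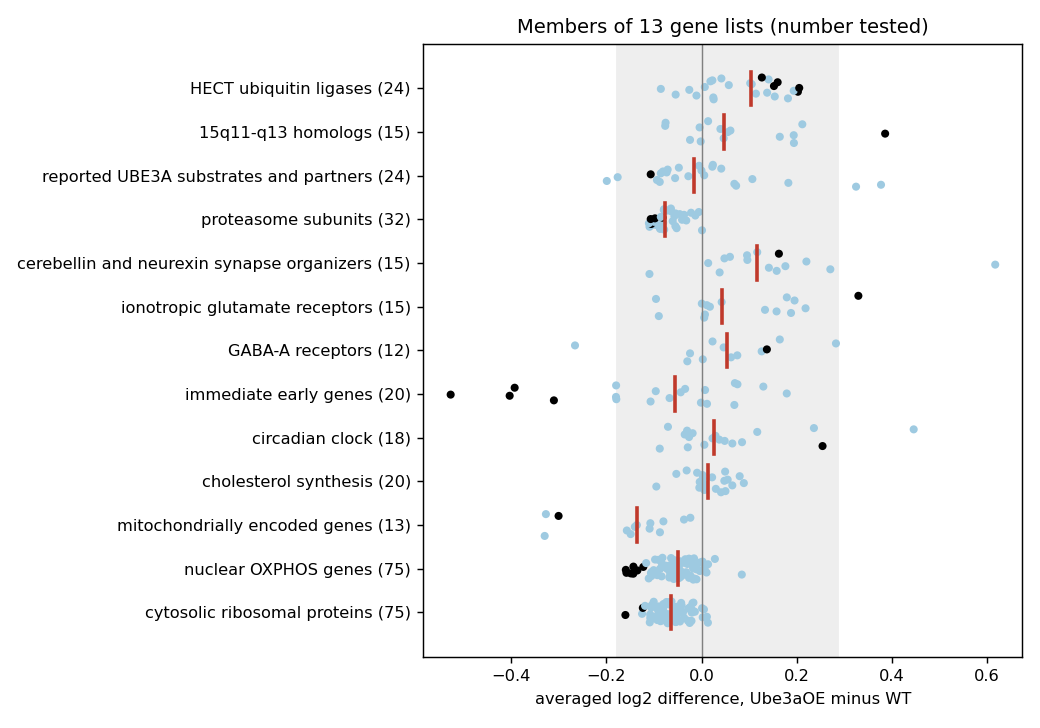
Averaged log2 difference between Ube3aOE and WT mice (x axis) of each tested member (points, black at an unadjusted p under 0.05) of 13 gene lists (y axis, number tested in brackets), with the list's median in red. The grey band holds the middle 90% of all genes tested, from -0.18 to 0.29. Medians run from -0.14 for the mitochondrially encoded genes to 0.12 for the cerebellin and neurexin genes.

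Markers of neighbouring tissues differed between hippocampus libraries. All 10 tested choroid plexus markers were higher in Ube3aOE mice, with a median of 0.60, 0.12 in cortex and 1.28 in hippocampus. In the hippocampus library of Ube3aOE mouse 7 they summed to 2179 CPM and in that of mouse 9 to 416 CPM, against 54.6 to 85.9 CPM in the other 8. All 10 striatal markers had a higher mean, with a median of 0.35, which was -0.04 without mouse 9. They summed to 963 CPM in the hippocampus of mouse 9 and to 163 to 213 CPM in the other 9. Of 8 thalamic markers 6 were higher, with a median of 0.43, which was 0.24 without mouse 10, and Lhx9, a transcription factor, stood at 0.95 (SE 0.41, unadjusted p = 0.0432). In hippocampus the thalamic markers summed to 610 CPM in WT mouse 4, to 726 CPM in Ube3aOE mouse 7, to 274 CPM in mouse 8 and to 1390 CPM in mouse 10, against 173 to 193 CPM in the other 6. The median of the thalamic markers was 0.02 in cortex and 0.66 in hippocampus. Lhx9 went the other way, with 1.21 (SE 0.96) in cortex and 0.69 (SE 0.52) in hippocampus. In cortex it had 100 and 66 reads in Ube3aOE mice 8 and 9, and 1 to 9 reads in each of the other mice. The part of the markers of neighbouring tissues in the averaged differences was not tested.

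**Figure D5:**
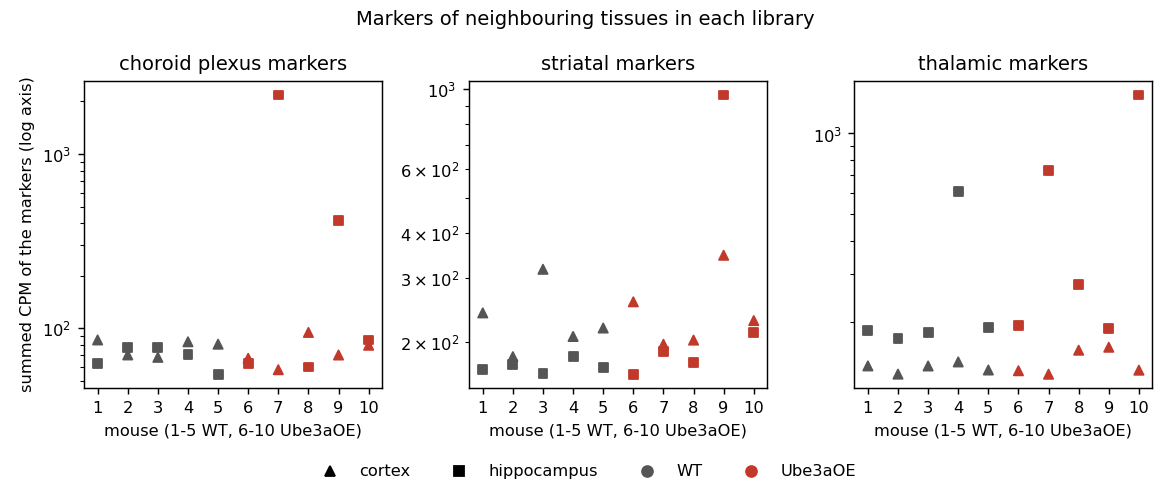
Summed CPM (y axis, log scale) of choroid plexus, striatal and thalamic markers in the cortex (triangles) and hippocampus (squares) library of each mouse (x axis, WT 1 to 5 in grey, Ube3aOE 6 to 10 in red). The hippocampus libraries of mice 7 and 9 for choroid plexus, of mouse 9 for striatum and of mice 4, 7, 8 and 10 for thalamus lie above the rest.

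Genes beyond a difference of 0.5 were 214, of which 183 were higher and 31 lower. Of these, 121 had an unadjusted p under 0.05, against 6.37% of all genes. They were picked by the size of the same difference that the p value tests, so a larger share follows from that choice. The median level of the 214 genes was a log2 CPM of 0.19, against 4.42 for all genes tested. Of the 10026 genes at or above 10 CPM, 16 were beyond 0.5. Foxp2, a transcription factor of striatum, thalamus and deep cortical layers, was one of these, named after its values were seen. It stood at 2.78, 3.29, 3.20, 4.44 and 2.61 in WT mice and at 2.80, 5.02, 3.66, 4.77 and 5.53 in Ube3aOE mice. Its difference of 1.09 (SE 0.56) was 0.09 in cortex and 2.09 in hippocampus, and the high values fell in mice 4, 7, 9 and 10, which had high thalamic or striatal markers. Isl1, a striatal marker near the limit of detection, differed by 1.75 (SE 0.49) without overlap, with 0.59 in cortex and 2.91 in hippocampus. It had 0 to 5 reads per WT library and 0 to 130 per Ube3aOE library, so that the size of this difference depends on the prior count.

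Markers of the meninges and of blood vessels were read as well. All 10 meningeal markers were higher, with a median of 0.32 (0.50 in cortex and 0.20 in hippocampus), and Col1a1, the collagen of connective tissue, differed by 0.65 (SE 0.21). The meningeal markers summed to 97.2 to 172 CPM in WT and to 99.0 to 311 CPM in Ube3aOE mice as mouse means. All 10 endothelial and mural markers had a higher mean, with a median of 0.13 and none at an unadjusted p under 0.05. WT mouse 2 decided this value. It summed to 215 CPM, against 299.8 to 356 CPM in the other WT and 301 to 362 CPM in the Ube3aOE mice, and without it the median was 0.007. For the meningeal markers the median was 0.08 without Ube3aOE mouse 8 and 0.55 without mouse 6. Neuron, astrocyte and microglia markers had medians of 0.02, 0.02 and -0.02.

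Peg10, Cdkn1c and Adamts15 were also among the abundant genes beyond 0.5, and were named after their values were seen. Peg10 and Cdkn1c are imprinted. Peg10, a gene derived from a retrotransposon, stood at 4.74, 4.52, 4.44, 4.41 and 4.38 in WT mice and at 4.73, 4.69, 5.34, 5.67 and 4.95 in Ube3aOE mice, a difference of 0.58 (SE 0.17, unadjusted p = 0.0058). Cdkn1c, an inhibitor of the cell cycle, differed by 0.61 (SE 0.23). Adamts15, a secreted protease of the extracellular matrix, differed by 0.61 (SE 0.20). In hippocampus Cdkn1c was highest in WT mouse 4 and Ube3aOE mice 7, 9 and 10 (3.88, 4.54, 4.13 and 4.71), and so was Adamts15 (3.88, 4.20, 3.68 and 4.59), all of them libraries with raised thalamic or striatal markers. Their part was not tested. All 3 overlapped between the genotypes and none passed the threshold.

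Without Ube3aOE mice 7 and 9 together, Ube3a differed by 1.43 and the smallest adjusted p of another gene was 0.895. The split of genes at an unadjusted p under 0.05 was then 358 higher and 333 lower. On chromosome 3, which holds the transgene in the lines that the study mapped, 800 genes were tested and 7.12% had an unadjusted p under 0.05, with a median difference of 0.003, inside the range of 4.95% to 8.32% over the chromosomes.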

How the data were processed

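mRNA of cortex and hippocampus was sequenced. The authors deposited raw read counts per gene for 47729 genes in each library, and 5 summary lines for the remaining reads, which were left out here. The submitters' processing notes name HISAT2 2.1.0, HTSeq 0.11.2 and GRCm38/mm10. The strand setting and annotation release are not given in the sources used here. Groups, mouse numbers and sex came from the labels. A number marks 1 animal, so its libraries were paired by the labels. The deviations of its libraries from the group means correlated with r from 0.149 to 0.248 in 9 mice and at -0.037 in mouse 4.

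Counts were filtered (edgeR 4.0.16, filterByExpr), scaled by TMM, expressed as log2 CPM (prior count 2) and averaged per mouse, as the definition of the comparison asks. Differences, SE, 95% confidence intervals and p values came from limma 3.58.1 with trended, robust variances in R 4.3.3, with Benjamini-Hochberg adjustment over all genes tested. The regions were compared as hippocampus minus cortex per mouse. Alternatives included edgeR, DESeq2 1.42.0 and sva 3.50.0. The fit was tested on simulated data. Positions and lengths came from GENCODE M21, which held 99.1% of the gene identifiers.

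The comparison, the gene lists and the tests were chosen with earlier results of these data known. Named genes are Ube3a, Cbln1, the 12 with the smallest p in each direction, the genes across the transgene, and list members at an unadjusted p under 0.05. The last restriction, and the genes said to be named after their values were seen, were chosen afterwards. The values of 1 list member are not reported here. P values and SE rest on the spread between these mice, with the variance of each gene drawn toward that of genes at a similar level. They are therefore not the spread of a single gene alone. The littermate relations of the mice are not given in the labels.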

Additional observations from a re-analysis of the deposited data

Results flagged for a closer look

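In 84 searches over groups of 5 mice, 9 had 1 mouse whose gap to the nearest other mouse took more than 0.71 of the whole range, against about 4.2 that chance gives at 1 in 20. Among single genes, Cbln1 was high in WT mouse 2 (averaged log2 CPM 5.95), PISD was low in Ube3aOE mouse 8 (5.22) and Luc7l3 was high in Ube3aOE mouse 6 (6.54). Among marker lists, as summed CPM averaged over both regions, WT mouse 2 was low for astrocyte (2282) and microglia markers (152). Ube3aOE mouse 7 was high for choroid plexus markers (1118), Ube3aOE mouse 9 for striatal markers (655) and WT mouse 4 for thalamic markers (376). Ube3aOE mouse 8 was low for neocortical markers (699).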

How the results depend on the processing

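The rise of Ube3a passed the threshold in every alternative run, from 1.24 to 1.43 on the log2 scale. It was 1.24 to 1.36 when 1 mouse was left out at a time. With the 20 libraries taken as independent, without the replicate block, it was 1.31, and with the mouse as a random replicate block in limma voom it was 1.31. The replicate block moved no call, but without it 1531 genes (9.78%) had an unadjusted limma p under 0.05. This number was 998 (6.37%) in the mouse means and 956 (6.10%) in voom with the block. The smallest adjusted p of a gene other than Ube3a was 0.314 without the block and 0.774 in the mouse means. Of the genes at an unadjusted p under 0.05, 50.4% were higher without the block, 50.1% in voom with it and 60.8% in the mouse means. With library totals in place of TMM factors 70.6% were higher.

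The count of genes that passed was 7 with DESeq2 on summed counts and 1 in each of the other alternatives, including every mouse left out. The smallest adjusted p of a gene other than Ube3a was 0.063 without mouse 6 and 0.956 without mouse 9, and genes at an unadjusted p under 0.05 numbered 1682 without mouse 6. The cause was not tested. The count of genes that differed between regions was 0 in each alternative except without mouse 10, where it was 2 (Zbed4, 0.78, and A830005F24Rik, -1.01, both with adjusted p = 0.0189), a range of 0 to 2. In the other alternatives the adjusted p of Zbed4 reached 0.9998. Genes with an interval inside the borders were 20685 without a filter, where 28659 genes were tested, and 12053 to 12497 with 1 mouse left out.

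Among single genes named, signs changed for 2. Snhg14 was -0.00215 without mouse 9 and -0.00526 without mouse 10, and mt-Rnr1 was 0.0558 in hippocampus alone. Of list medians, that of the clock genes was -0.01 without mouse 2, that of the astrocyte markers -0.08 without mouse 2, and those of the glutamate and GABA-A receptors 0.02 without mouse 2 and 0.01 without mouse 9. Further medians changed sign. Those of dividing cell and oligodendrocyte markers were -0.02 without mouse 2 and -0.01 without mouse 10. Those of blood and microglia markers were 0.06 without mouse 4 and 0.03 without mouse 5. That of the UBE3A substrates and partners was 0.001 without mouse 10. Covariates for the level of Xist and the joint removal of mice 3 and 5 or 7 and 9 were chosen after the data were seen. The 5 mice per group and the median SE of 0.086 limit the precision for single genes.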

Other observations

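Dividing cells and oligodendrocyte precursors, which are abundant at P7, gave small differences. Of 10 markers of dividing cells, 6 were higher and 4 lower, with a median of 0.05. Mki67, a marker of cycling cells, stood at 0.24 (SE 0.10) and Bub1, a mitotic checkpoint kinase, at 0.25 (SE 0.10) without overlap between the genotypes, whereas Pcna, the DNA polymerase clamp, stood at -0.12 (SE 0.05). Of 9 oligodendrocyte markers, 7 were higher, with a median of 0.03, -0.11 in cortex and 0.18 in hippocampus, and Pdgfra, the receptor of precursor cells, stood at 0.16 (SE 0.06). None of these passed the threshold over all genes tested.

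Within the neuron markers, Nefm, a neurofilament subunit, was higher at 0.30 (SE 0.11), and Snap25, a protein of synaptic vesicle fusion, lower at -0.13 (SE 0.05), while 6 of 10 were higher and 4 lower. Within the astrocyte markers, Sox9, a transcription factor, stood at 0.23 (SE 0.10) and Aldoc, a glycolytic enzyme, at -0.13 (SE 0.05). Of 6 blood markers, 2 were higher and 4 lower, with a median of -0.08. These values are from the averaged comparison, at unadjusted p values under 0.05 for each gene named.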
